A study of Zea mays with 2 samples.

Results

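The loci described here are stretches of the nuclear genome of maize (Zea mays) under which the deposited files list more than 1 FPKM value. FPKM is a fragment count scaled by exon length and by the number of mapped fragments in the library. A value and its position form a row of a file, and a position on chromosomes 1 to 10 was kept when it occurred in 2 or more rows in at least one library. Of 33949 nuclear positions listed in one or both libraries, 3659 met this rule, which is 10.8%. The other 30290 positions had a single row wherever they were listed and served for comparison. The 3659 loci are those with several listed values, as their label says, and the files do not tell whether a row stands for a gene or for a transcript.

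The study compared whole kernels, labelled as endosperm, at 15 days after pollination (DAP). The WT group is a pool of non-transgenic kernels and the ZmMADS47 RNAi group is a pool of transgenic kernels, and both pools came from selfed heterozygous plants of RNAi line 3, according to the methods. All transgenic lines had been backcrossed into W22. The transgene expresses an inverted repeat of a ZmMADS47 coding fragment from the 16-kD γ-zein promoter, which is active in the endosperm, so the knockdown is limited to tissue that uses this promoter, and 1 transgenic event stands for the genotype. Each group has 1 deposited set of values, called a library here, although the series speaks of triplicates, and the sources do not tell whether it combines several libraries. Therefore no difference between the genotypes has a replicate check and no P value was computed. In pooled kernels, fewer cells of a type and less RNA per cell cannot be told apart.

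Genes do not always lie apart from each other. Neighbouring transcripts can overlap at their ends, small genes can lie within introns of larger ones, and duplicated genes can stand in tandem, as the α-zein storage protein genes of maize do. Programs that estimate FPKM from aligned reads gather overlapping transcript models into a shared locus and divide the reads among them. Reads from near-identical copies are difficult to assign, and the values here rest on unique reads. Which loci hold which genes cannot be said, because the files pair no position with a gene name. Positions refer to the maize assembly AGPv2 named in the methods and are counted from 1.

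The RNAi library listed 34390 nuclear values and the WT library 34892, and the loci with several rows held 20.5% and 20.3% of them. The lowest listed value was 0.0169 FPKM in RNAi and 0.0286 FPKM in WT, so a row below detection is missing rather than listed at 0. The FPKM summed to 389613 over these loci in RNAi and to 464050 in WT, or 35.3% and 37.4% of the nuclear total. ZmMADS47 itself was located through the chromosome 1 interval given in the paper. The listed locus with the largest overlap was a single-row locus from 17965514 to 17987077, and its ends do not match those of the paper exactly. This locus had 4.01 FPKM in RNAi kernels and 8.79 FPKM in WT kernels, a ratio of 0.457, so the targeted gene was lower in the library labelled RNAi. Of single-row loci with a mean of 1 to 10 FPKM, 17.4% had a ratio below 0.71.

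Loci with several rows were longer and more abundant than single-row loci. Their median span was 4498 bp, against 2726 bp at single-row loci. By the larger row number of the 2 libraries, it was 4291 bp with 2 rows, 7396 bp with 3 rows and 15055 bp with 4 or more rows. The shortest spanned 411 bp and the longest 191581 bp. Loci of 20 kb or more made up 213 of the 3659 loci (5.82%) but only 597 of the 30290 single-row loci (1.97%), and loci of 300 to under 1000 bp made up 109 (2.98%) and 4593 (15.2%). No locus with several rows was under 300 bp, whereas 409 single-row loci were. The median summed FPKM of the loci listed in each library was 10.5 in RNAi and 10.7 in WT, against 3.64 and 3.42 at single-row loci. A locus can enter the set only through listed rows, so part of this difference in FPKM follows from the rule.

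**Figure D1:**
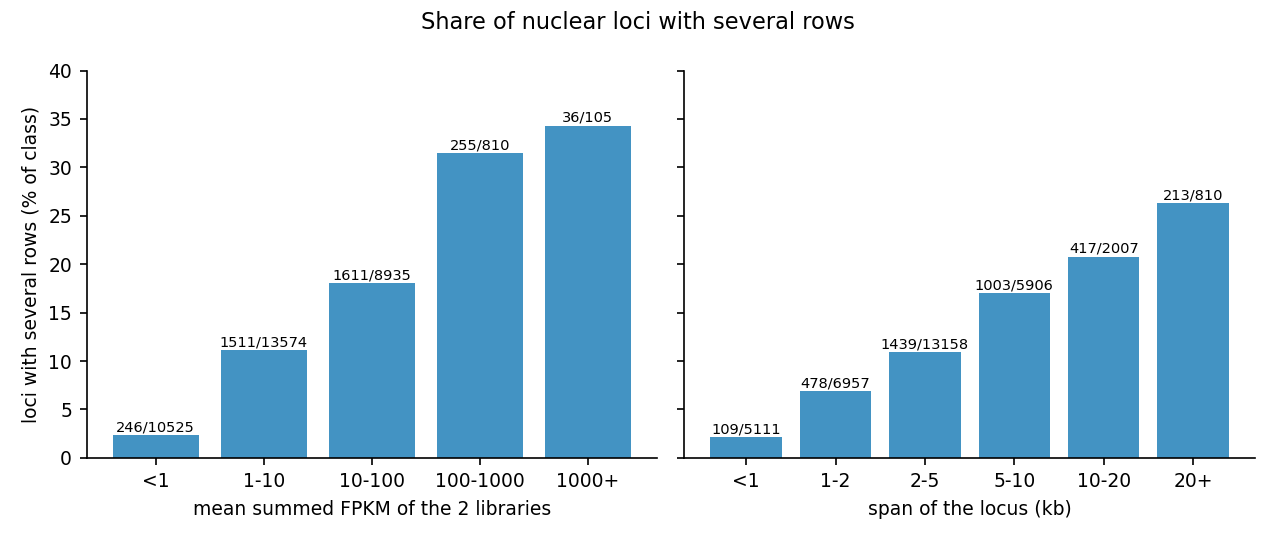
Share of nuclear loci with several rows (vertical axis, percent) by mean summed FPKM of the 2 libraries (left) and by span (right), with the number of loci with several rows over all loci of the class above each bar. The share rose from 2.34% under 1 FPKM to 34.3% at 1000 FPKM or more, and from 2.13% under 1 kb to 26.3% at 20 kb or more.

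The plot of shares by class shows that both properties ran with the presence of several rows. At a mean summed FPKM of 100 to 1000, 255 of 810 loci had several rows (31.5%), and at 1000 or more 36 of 105 did (34.3%). Between chromosomes the share varied little, from 9.39% on chromosome 10 to 11.6% on chromosome 1. None of the 33939 pairs of neighbouring listed positions overlapped. The median gap to the nearest listed locus was 4807 bp for loci with several rows and 5536 bp for single-row loci. Of the 3659 loci with several rows, 436 were followed on their chromosome by another one. Over all nuclear loci the share with several rows was 10.8%. Whether loci with several rows follow each other more often than this share was not tested.

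Most of these loci held just 2 rows. In the RNAi library 2983 loci had 2 rows, 190 had 3, 20 had 4 and 1 had 8, and in the WT library the numbers were 3022, 188, 19 and 1. The number of rows was the same in both libraries at 2670 loci and differed at 989 (27.0%), of which 478 had more rows in RNAi and 511 had more in WT. The difference was 1 row at 919 loci and 2 rows at 70. Of the 3659 loci, 22 were listed in RNAi alone and 35 in WT alone, whereas 5451 of the single-row loci (18.0%) were listed in 1 library only. These numbers were not compared at similar FPKM. Part of the contrast follows from the rule, because 1 row in the other library is enough for a locus to be listed there.

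Within a locus the values were uneven. The highest row, called the top row here, held a median of 76.4% of the summed FPKM in RNAi and 75.9% in WT, over the loci with several rows in that library. The interquartile range ran from 63.0% to 90.3% in RNAi and from 62.1% to 89.4% in WT. The top row held at least 90% at 816 loci in RNAi and 763 in WT, and under 60% at 636 and 669. At loci with 2 rows the top row was a median of 3.35 times the second in RNAi and 3.26 times in WT. A fold under 1.5 was found at 562 and 587 of them, and a fold of at least 100 at 101 and 94. At loci with 3 rows the median shares of the ranks in WT were 66.0%, 24.5% and 5.76%, and at the 19 loci with 4 rows they were 62.5%, 23.3%, 8.55% and 2.34%. By construction the top row holds at least an even share of the sum, and an even share is smaller with more rows. The row values at a locus were almost never equal. A single exact tie was found, in the RNAi library on chromosome 8 from 66829804 to 66858585, where both rows were 0.326 FPKM.

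The unevenness was similar in both libraries. Over the 2670 loci with the same number of rows, the share of the top row had a Pearson r of 0.79 between RNAi and WT, and the median absolute change was 4.65 percentage points. Over the 1567 of them with a mean summed FPKM of at least 10, r was 0.89 and the median change 3.43 points. Both coefficients describe loci of the same 2 libraries, which are not independent replicates. A change of at least 20 points occurred at 176 of the 2670 loci and at 47 of the 1567.

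In one or both libraries 27 loci had 4 or more rows, and 10 of them show these patterns row by row. They were taken in order of row number and then of mean summed FPKM, and are called A to J. Loci B to J are thus the most abundant of those tied at 4 rows. Locus A, on chromosome 4 from 5093411 to 5137340, was the only one with 8 rows and was also the most abundant locus of the set. Its rows in WT kernels were 44363, 4150, 3243, 1861, 455, 130, 10.3 and 2.56 FPKM. In RNAi kernels they were 30001, 2343, 2298, 1088, 261, 75.7, 8.24 and 3.46 FPKM. All rows but the lowest were thus lower in the RNAi library. Rank by rank, the RNAi over WT ratios ran from 0.564 to 0.800 over the upper 7 ranks and reached 1.35 at the lowest. The summed FPKM was 54216 in WT and 36077 in RNAi, a ratio of 0.665, and after scaling both libraries to the same nuclear total the log2 ratio of -0.59 became -0.42, which lies inside the fold limits used here. These are the limits of the study, a ratio above 1.4 or below 0.71, and of all 23834 nuclear loci compared 17.3% lay above and 14.2% below. The top row held 81.8% of the sum in WT and 83.2% in RNAi.

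Loci B and C had 4 rows in RNAi and 3 in WT. Locus B, on chromosome 10 from 63613518 to 63622627, had rows of 749, 463 and 7.17 FPKM in WT and of 499, 251, 9.10 and 0.309 FPKM in RNAi, and its sum was lower in RNAi with a ratio of 0.623. Both of its abundant rows were lower in RNAi, and the additional RNAi row was the lowest. Locus C, on chromosome 7 from 8046592 to 8060718, had rows of 233, 3.36 and 2.88 FPKM in WT and of 256, 3.59, 2.60 and 0.513 FPKM in RNAi. Here the additional row was again the lowest, and the ratio of the sums was 1.10.

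Locus D, on chromosome 7 from 165824939 to 165909567, had rows of 84.8, 19.8, 5.53 and 5.43 FPKM in WT and of 82.5, 18.4, 6.55 and 5.36 FPKM in RNAi, so all 4 ranks were close and the ratio of the sums was 0.976. Locus E, on chromosome 5 from 2575977 to 2603606, also had nearly equal sums, 107 FPKM in WT and 110 FPKM in RNAi. Its rows nevertheless differed. They were 66.8, 30.5, 7.45 and 2.07 FPKM in WT and 87.0, 12.8, 6.25 and 3.70 FPKM in RNAi, which took the share of the top row from 62.5% to 79.2%.

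The remaining 5 of these loci had sums between 41.3 and 106 FPKM in each library. Locus F, on chromosome 5 from 214122497 to 214132628, had 73.1, 17.7, 9.04 and 5.85 FPKM in WT and 66.4, 16.2 and 6.21 FPKM in RNAi. Locus G, on chromosome 5 from 19456812 to 19462475, had 61.7, 10.3, 8.18 and 3.33 FPKM in WT and 58.5, 8.21, 7.73 and 0.572 FPKM in RNAi. Every rank of G was lower in RNAi, the lowest one most, yet the sum had a ratio of 0.898. Locus H, on chromosome 5 from 33289709 to 33421404, had 35.1, 15.2, 11.1 and 3.78 FPKM in WT and 37.9, 16.1, 14.9 and 6.11 FPKM in RNAi. Locus I, on chromosome 9 from 131565883 to 131589080, had 34.9, 8.55, 5.44 and 0.555 FPKM in WT and 37.8, 11.8, 6.94 and 0.273 FPKM in RNAi. Locus J, on chromosome 5 from 120738444 to 120748777, had 21.3, 16.2, 3.15 and 0.682 FPKM in WT and 24.5, 23.7, 4.38 and 0.550 FPKM in RNAi. H was higher in RNAi at every rank, whereas I and J were higher at the upper 3 ranks and lower at the fourth. The ratios of the sums were 1.15 for H, 1.15 for I and 1.28 for J, and that of J passed the upper fold limit only after scaling to the same nuclear total.

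**Figure D2:**
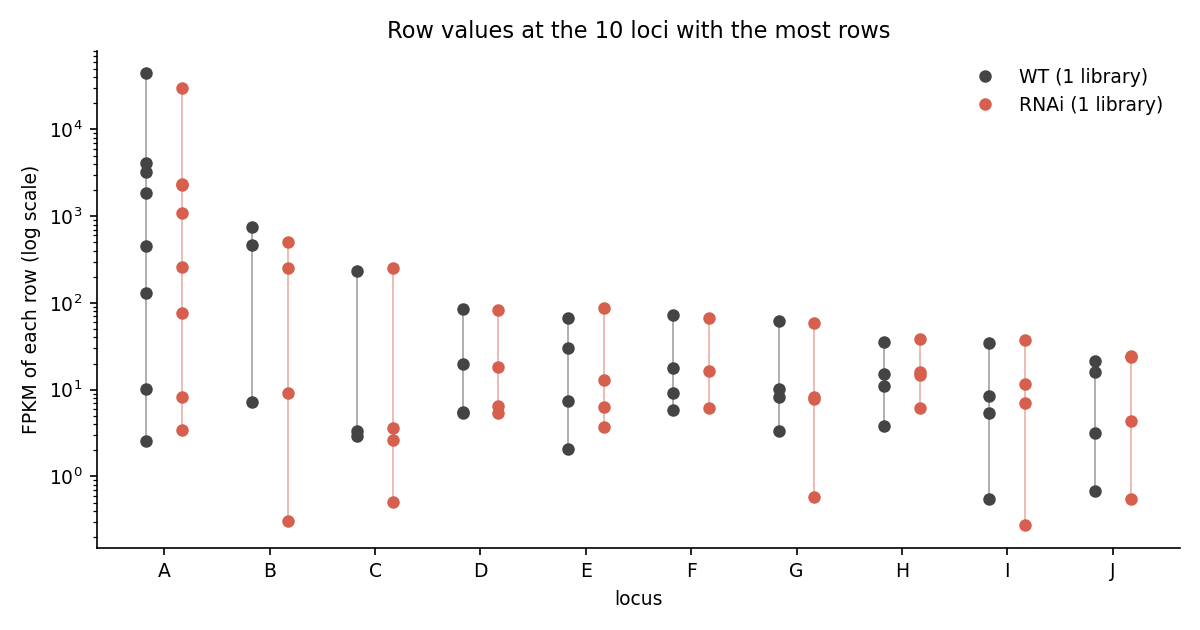
FPKM of every listed row (vertical axis, log scale) at the 10 loci with the most rows, A to J (horizontal axis), in the WT library (grey) and the RNAi library (red), with a line joining the rows of a library. Locus A spans values from 2.56 to 44363 FPKM in WT, and its upper rows sit lower in RNAi.

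The 10 loci of the highest mean summed FPKM include locus A, and 8 of the 10 lie on chromosome 4. On chromosome 4 from 5167197 to 5172399, a locus close to A had rows of 24006 and 7121 FPKM in WT and of 12779 and 4719 FPKM in RNAi. Both rows were lower in RNAi, and the ratio of the sums was 0.562. Together with locus A this pair summed to 85342 FPKM in WT and 53575 FPKM in RNAi, a ratio of 0.628.

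A second group on chromosome 4, between 5516523 and 5556634, held 5 abundant loci with several rows. Their FPKM summed to 68155 in WT and 59551 in RNAi, a ratio of 0.874, with single ratios from 0.450 to 1.01 and 1 locus below 0.71. The largest of the 5, from 5544034 to 5556634, had 2 rows of 21303 and 14019 FPKM in WT and 3 rows of 18728, 13470 and 0.618 FPKM in RNAi. It was the only one of the 10 most abundant loci with no dominant row, and the additional RNAi row added almost nothing to its sum. The locus from 5530750 to 5531969 was the opposite case, with 11619 and 0.615 FPKM in WT and 10021 and 0.361 FPKM in RNAi, and it held the largest folds between rows at any 2-row locus, 18898 in WT and 27777 in RNAi.

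The other chromosome 4 loci among the 10 were short and had a dominant row. From 21312310 to 21313388 the rows were 42413 and 75.3 FPKM in WT and 27854 and 68.1 FPKM in RNAi, with a ratio of the sums of 0.657. From 29933783 to 29935053 they were 11873 and 150 FPKM in WT and 7686 and 87.7 FPKM in RNAi, with a ratio of 0.647. Both loci were lower in RNAi as deposited, and neither passed the lower limit after scaling to the same nuclear total (log2 ratios of -0.43 and -0.46). From 29922223 to 29923189 the rows were 30119 and 22.4 FPKM in WT and 24762 and 36.4 FPKM in RNAi, and from 1258805 to 1260587 they were 10897, 202 and 11.4 FPKM in WT and 9781, 175 and 6.18 FPKM in RNAi. The sums of this last pair of loci differed less, with ratios of 0.823 and 0.897. Chromosome 4 held 13 of the 36 loci with a mean summed FPKM of at least 1000, and the remaining ones went in opposite directions. From 174901704 to 174907176, over 5473 bp, the 2 rows summed to 451 FPKM in WT and 1806 FPKM in RNAi, a ratio of 4.001, and from 195759880 to 195760460 they summed to 1834 FPKM in WT and 1245 FPKM in RNAi, a ratio of 0.679. Both were singled out after their values were seen.

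Of the 10, the ones elsewhere were on chromosomes 2 and 7. On chromosome 2 from 183342461 to 183343536 the rows were 20933 and 349 FPKM in WT and 24025 and 494 FPKM in RNAi, and this was the only one of the 10 with a higher sum in RNAi (ratio 1.15). On chromosome 7 from 120200894 to 120203011 they were 16492 and 3060 FPKM in WT and 13864 and 2323 FPKM in RNAi, with a ratio of 0.828. Over all 36 loci with several rows and a mean summed FPKM of at least 1000, 14 had a ratio below 0.71 and 2 had a ratio above 1.4. Among the 55 single-row loci of that abundance listed in both libraries, 19 were below and 14 above. Of the 36 loci, 30 had equal row numbers, and 10 of these were below and 2 above. The 14 include loci of chromosomes 1, 8 and 9 whose mean rests on WT. Their sums were 2049, 10955 and 6675 FPKM in WT and 106, 26.4 and 29.4 FPKM in RNAi. The mean of the chromosome 4 locus with a ratio of 4.001 rests on RNAi. All these counts are as deposited and were not repeated after scaling.

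These abundant loci set the total. The summed FPKM of all loci with several rows had an RNAi over WT ratio of 0.840, against 0.917 for single-row loci. Without the 36 abundant loci the ratio was 1.10, so its direction rests on them. Chromosome 4 held 57.2% of the summed FPKM of these loci in WT and 51.7% in RNAi, with a ratio of 0.758, and of 0.782 without locus A. Chromosome 8 had the lowest ratio, 0.455, but a single locus with a different number of rows, described below, decided it, and without this locus the ratio was 1.03. On chromosome 9 the ratio of 0.784 likewise became 1.28 without 1 locus. The other chromosomes ranged from 0.874 to 1.12, and single loci weighed on these too. Each was also summed without its locus of the largest difference. Chromosome 10 then went from 0.970 to 1.18, chromosome 3 from 0.874 to 0.980 and chromosome 7 from 0.897 to 0.996. Chromosome 2 fell from 1.10 to 1.03, and chromosomes 1, 5 and 6 rose to 1.16, 1.20 and 1.20.

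The ratio of the sums was then compared across all loci with the same fold limits. A ratio was taken where a locus was listed in both libraries and reached 1 FPKM in one or both, which held for 3463 of the 3659 loci. Of the rest, 57 were listed in 1 library and 139 stayed under 1 FPKM. Above 1.4 were 631 of the 3463 loci (18.2%) and below 0.71 were 548 (15.8%), against 17.3% and 14.2% of all 23834 nuclear loci compared in the same way. The shares were thus near those of all loci. The median log2 ratio was 0.04, and 0.07 over all nuclear loci. Scaling to the same nuclear total raised every log2 ratio by 0.17, so that 70.0% of the loci past a limit were higher in place of 53.5%, and scaling by the median ratio gave 46.6%.

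Set beside single-row loci of similar span and FPKM, the ratios at loci with several rows were more widely spread. For this comparison the single-row loci were weighted so that their classes of span and mean FPKM, each a factor of 2 wide, had the same shares as among the loci with several rows. Of the weighted single-row loci, 11.7% were above 1.4 and 9.0% below 0.71. The median absolute log2 ratio was 0.31 at loci with several rows and 0.22 at these single-row loci. Part of this wider spread follows from the rule. Loci listed in both libraries with unequal row numbers can enter only the set with several rows. The medians of the signed log2 ratio were close, with a difference of -0.04. For 26 of the 3463 loci no single-row locus of the same class was found.

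Much of the spread belonged to loci whose number of rows differed. With the same number of rows, 412 of 2626 loci (15.7%) were above 1.4 and 310 (11.8%) below 0.71, against 10.3% and 7.73% of the single-row loci weighted to them. The median absolute log2 ratio was 0.27 against 0.21. With a different number of rows, 219 of 837 loci (26.2%) were above 1.4 and 238 (28.4%) below 0.71, and the median absolute log2 ratio was 0.57, against 0.26 for single-row loci weighted to them. A sum over more rows is larger by construction, and the direction followed the row number. Of 413 loci with more rows in RNAi, 201 (48.7%) were above 1.4 and 22 (5.33%) below 0.71. The single-row loci weighted to them had 15.3% and 12.2%. Of 424 loci with more rows in WT, 18 (4.25%) were above and 216 (50.9%) below, against 16.6% and 13.4%.

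**Figure D3:**
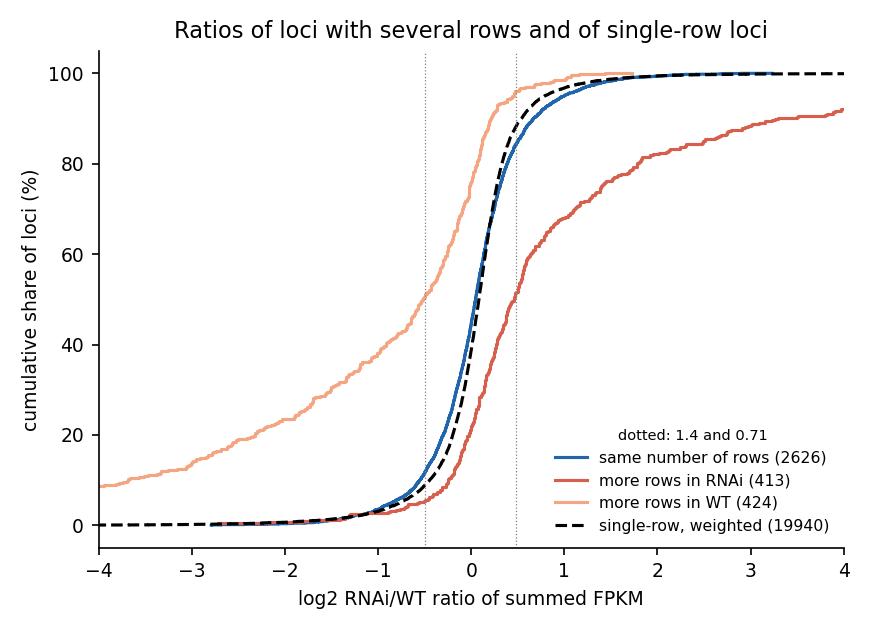
Cumulative share of loci (vertical axis, percent) by the log2 RNAi over WT ratio of summed FPKM (horizontal axis), for loci with the same number of rows, with more rows in RNAi, with more rows in WT, and for single-row loci weighted to the span and FPKM of all loci with several rows (dashed). The curves for a different number of rows lie to either side, and 70 loci lie beyond 4 in either direction, outside the axis.

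**Figure D4:**
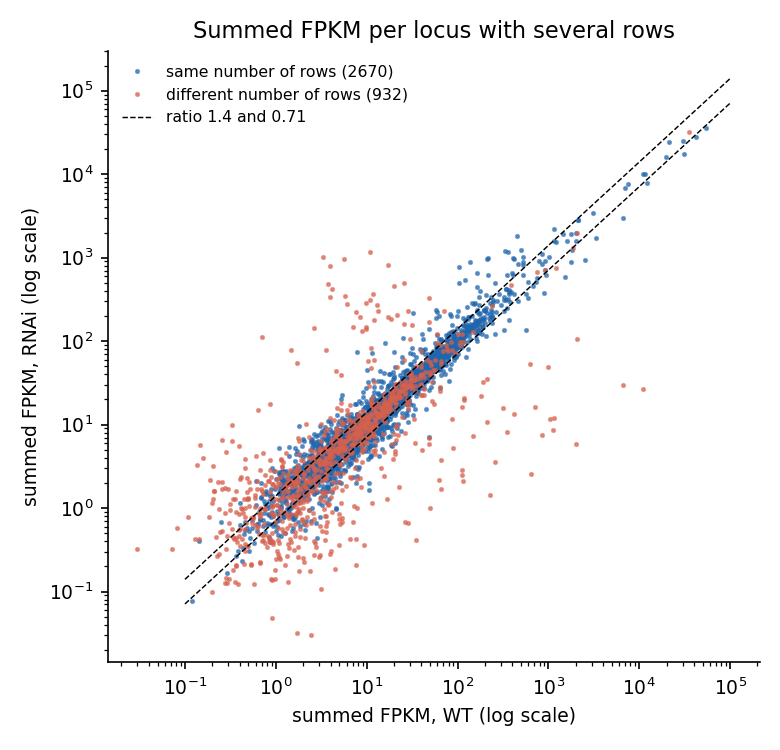
Summed FPKM in RNAi (vertical axis, log scale) against WT (horizontal axis, log scale) for every locus with several rows that had values in each library, 2670 with equal row numbers (blue) and 932 with unequal ones (red), with dashed lines at ratios of 1.4 and 0.71. The points farthest from the lines are loci with a different number of rows.

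Loci with the same number of rows were also compared by level of FPKM. At a mean summed FPKM of 1 to 10, 21.5% were above 1.4 and 17.3% below 0.71, against 17.7% and 12.8% of the weighted single-row loci. At 10 to 100 the shares were 9.87% and 7.11%, against 4.67% and 3.19%. At 100 or more, 52 of 230 loci (22.6%) were above 1.4 and 27 (11.7%) below, against 6.92% and 8.95%, with no single-row locus of the same class for 15 of the 230. The comparison rests on the weighting. Without it, 21.7% and 17.4% of single-row loci passed the limits at 1 to 10 FPKM, 6.54% and 4.55% at 10 to 100, and 13.1% and 12.0% at 100 or more. At 1 to 10 FPKM, and below 0.71 at 100 or more, the shares of the unweighted single-row loci were thus no smaller. At this level 24 of the 92 loci with a mean top-row share of 60% to 90% were above 1.4 and 5 below, of the 28 loci with a share under 60%, 2 were above and 2 below, and of the 110 loci with a share of 90% or more, 26 were above and 20 below. Loci with 4 or more rows in both libraries were few, and of 14 none was above 1.4 and 2 were below 0.71.

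The rows of a locus did not always move together. At the 2476 loci with 2 rows in both libraries, rows were compared by rank, since the files give no name that would pair them. Rows that exchanged ranks between the libraries would be paired wrongly. The top row was above 1.4 at 416 loci (16.8%) and below 0.71 at 326 (13.2%), and the second row at 550 (22.2%) and 539 (21.8%). Among single-row loci of all levels the shares were 17.1% and 13.9%. Among those with a mean of 1 to 10 FPKM they were 21.7% and 17.4%, closer to the shares of the second row. The median FPKM in WT was 9.55 for the top row and 2.38 for the second. Both rows were above 1.4 at 148 loci and both below 0.71 at 128, while at 102 loci one row was above and the other below. Of the 798 loci with a mean second row of at least 5 FPKM, 5 had rows past the limits in opposite directions. The sum lay between the limits at 1790 loci, and at 767 of these at least 1 row was past a limit.

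Which row passed a limit varied with abundance. At a mean summed FPKM of 10 to 100, the top row alone was past a limit at 132 of 1243 loci (10.6%) and the second row alone at 349 (28.1%). At 100 or more the order was turned, with the top row alone past a limit at 60 of 202 loci (29.7%) and the second row alone at 30 (14.9%). Single-row loci also passed a limit more often at this level, 25.1% of 550 against 11.1% of 7232 at a mean of 10 to 100. At 43 of these 60 loci the top row was above 1.4 and at 17 below 0.71. The median second row of the 202 loci was 26.9 FPKM in WT and 26.5 FPKM in RNAi. At the 1243 loci of 10 to 100 FPKM it was 4.97 FPKM in WT and 5.22 FPKM in RNAi. Of single-row loci with a mean of 1 to 10 FPKM, 39.05% passed a limit. Whether the turned order goes beyond the level of the rows was not tested.

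**Figure D5:**
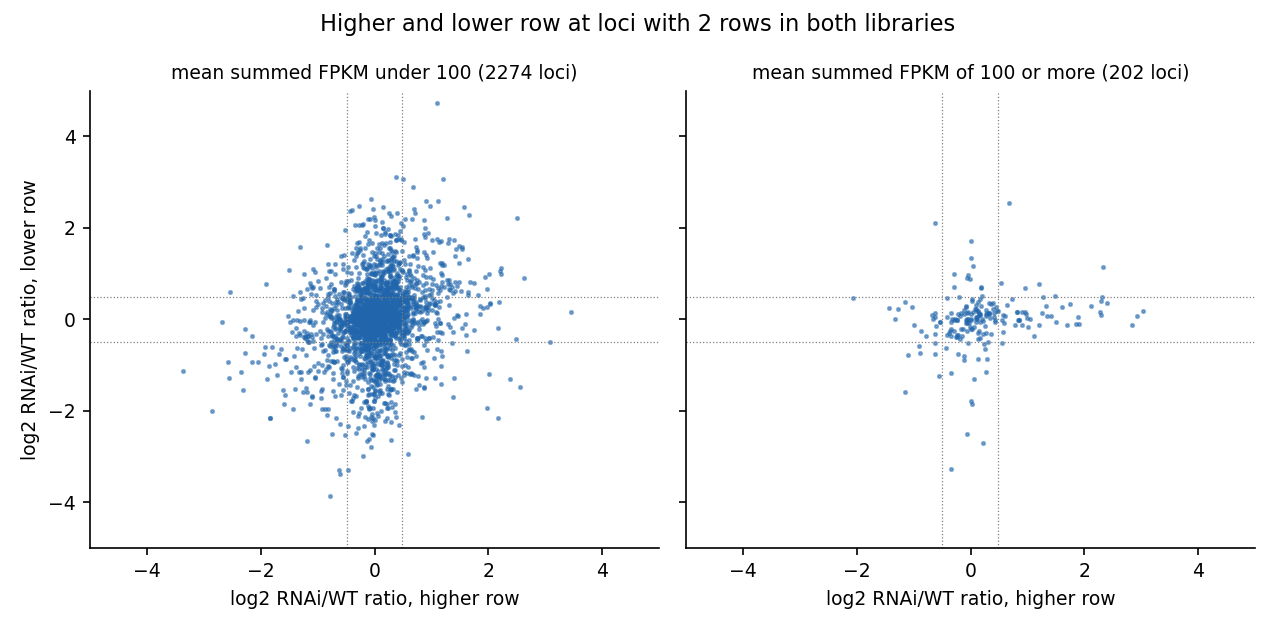
Log2 RNAi over WT ratio of the second row (vertical axis) against that of the top row (horizontal axis) at loci with 2 rows in both libraries, under a mean summed FPKM of 100 (left, 2274 loci) and at 100 or more (right, 202 loci), with dotted lines at ratios of 1.4 and 0.71. On the right, 60 loci lie past a line for the top row only and 30 for the second row only.

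Loci with large ratios were then listed singly. They were chosen by the ratio of the sum, and the top row holds most of the sum. A large difference in the top row therefore follows from the choice. Among loci with the same number of rows and a mean summed FPKM of at least 10, the highest ratio was 9.39, on chromosome 4 from 186589019 to 186591632. Its rows were 6.54 and 1.29 FPKM in WT and 72.1 and 1.44 FPKM in RNAi, so the top row was higher in RNAi and the second nearly equal. On chromosome 6 from 160625203 to 160629814 the rows were 92.4 and 10.5 FPKM in WT and 753 and 12.0 FPKM in RNAi, with a ratio of the sums of 7.43. On chromosome 4 from 169209879 to 169229732 they were 27.5 and 5.07 FPKM in WT and 210 and 5.28 FPKM in RNAi, with a ratio of 6.60. In each of these loci the second row differed little between the libraries.

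The next in order were on chromosomes 2 and 7. On chromosome 2 from 220923627 to 220927138 the rows were 123 and 13.7 FPKM in WT and 874 and 12.6 FPKM in RNAi, with a ratio of 6.50. On chromosome 7 from 2738045 to 2739244 they were 8.31 and 3.03 FPKM in WT and 70.4 and 2.13 FPKM in RNAi, with a ratio of 6.39. The top row was far higher in RNAi at both, and the second row was lower, by rank with a ratio of 0.702 at the locus of chromosome 7, which is past the lower limit.

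At the other end were loci with a lower top row in RNAi. On chromosome 3 from 158979321 to 159007265 the rows were 44.9, 4.14 and 0.0720 FPKM in WT and 4.74, 2.19 and 0.162 FPKM in RNAi, and the ratio of the sums was 0.144, the lowest among loci with equal row numbers and this mean. On chromosome 6 from 120054604 to 120057326 they were 569 and 0.796 FPKM in WT and 136 and 1.09 FPKM in RNAi, with a ratio of 0.240. The lowest row was higher in RNAi at both loci, at values near or under 1 FPKM. On chromosome 6 from 22724883 to 22725820 the rows were 15.0 and 4.08 FPKM in WT and 3.08 and 2.46 FPKM in RNAi, with a ratio of 0.290. On chromosome 2 from 231282768 to 231284403 they were 16.6 and 3.67 FPKM in WT and 4.02 and 1.93 FPKM in RNAi, with a ratio of 0.293. On chromosome 8 from 168479978 to 168481963 they were 12.0 and 6.46 FPKM in WT and 3.98 and 1.78 FPKM in RNAi, with a ratio of 0.311. Both rows were lower in RNAi at these last 3 loci.

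The share of the top row changed most on chromosome 4 from 182632552 to 182639444, from 46.4% in WT to 90.9% in RNAi. Its rows were 7.38, 6.37 and 2.15 FPKM in WT and 86.8, 4.44 and 4.21 FPKM in RNAi. On chromosome 5 from 2186824 to 2188668 the rows were 3.31 and 1.87 FPKM in WT and 19.6 and 0.665 FPKM in RNAi, and the share went from 63.9% to 96.7%. On chromosome 7 from 164948659 to 164953684 they were 9.34 and 7.52 FPKM in WT and 11.5 and 1.57 FPKM in RNAi, with a share of 55.4% and 87.9%. The sum of this locus stayed between the limits, at a ratio of 0.774, although its second row was far lower in RNAi. On chromosome 4 from 238222376 to 238229214 they were 12.0 and 1.32 FPKM in WT and 11.5 and 8.09 FPKM in RNAi. The top row was nearly equal there, and the higher second row alone gave the ratio of 1.46, which fell inside the limits after scaling by the median ratio (log2 ratio 0.48). Likewise, on chromosome 4 from 39321164 to 39328201, the rows were 9.90, 1.88 and 0.127 FPKM in WT and 10.8, 9.39 and 0.101 FPKM in RNAi, with a ratio of 1.71.

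Loci with a different number of rows were examined for the row that had no counterpart. The library with fewer rows was matched to the other by the assignment with the smallest summed absolute log2 ratio, and the rows left over were taken as unpartnered. This gave 945 unpartnered rows at the 932 loci listed in both libraries, with a median of 0.660 FPKM, and 59.9% of them were under 1 FPKM. At loci with the same number of rows the lowest row had a median of 2.28 FPKM in RNAi and 2.26 FPKM in WT, and 30.4% were under 1 FPKM. Single-row loci listed in 1 library only had a median of 0.404 FPKM. Rows found in 1 library were thus mostly low, and at the 825 loci with 2 rows against 1, the unpartnered row was the second at 554.

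At the other 271 of those loci the unpartnered row was the top row, and some of these rows were very high. Unpartnered rows of at least 100 FPKM numbered 35 in RNAi and 27 in WT, and each of the 62 was the top row of its locus. They summed to 11717 FPKM in RNAi and 31400 FPKM in WT. Without read counts it could not be seen whether such a value rests on few reads.

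The highest of them, singled out after their values were seen, were all in WT. On chromosome 8 from 125536101 to 125539093 the rows were 10923, 26.1 and 5.66 FPKM in WT and 21.8 and 4.58 FPKM in RNAi, and on chromosome 9 from 92311409 to 92315276 they were 6641 and 33.3 FPKM in WT and 29.4 FPKM in RNAi. These are the loci that decided the sums of chromosomes 8 and 9. On chromosome 3 from 192017604 to 192018957 the rows were 1986 and 7.71 FPKM in WT and 5.79 FPKM in RNAi, and on chromosome 1 from 194657095 to 194659202 they were 1941, 91.4 and 16.4 FPKM in WT and 95.03 and 10.9 FPKM in RNAi. The matching itself favours close pairs among the remaining rows.

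The highest in RNAi had the same form in the other direction. On chromosome 4 from 148017529 to 148020116 the rows were 1147 and 10.6 FPKM in RNAi and 10.8 FPKM in WT, and on chromosome 7 from 102646284 to 102649093 they were 1003 and 3.82 FPKM in RNAi and 3.29 FPKM in WT. At both loci the WT row was close in value to the lower RNAi row. The matching pairs rows by this closeness, so it does not show that they are the same row. This did not hold at every such locus. On chromosome 4 from 68153139 to 68156735 the rows were 102, 46.1 and 11.2 FPKM in RNAi and 16.9 and 9.03 FPKM in WT, with a ratio of the sums of 6.16, and a matched row differed as well.

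The largest differences in row number completed the set. On chromosome 7 from 97346478 to 97347021 the WT library listed 379 and 2.77 FPKM and the RNAi library listed no row, so no ratio was taken. On chromosome 1 from 30744806 to 30762772, 2 rows of 38.5 and 0.651 FPKM in WT stood against 4 rows of 47.0, 6.15, 0.813 and 0.101 FPKM in RNAi. On chromosome 2 from 168262199 to 168270041, 1 row of 1.46 FPKM in WT stood against 3 rows of 77.4, 1.19 and 0.0905 FPKM in RNAi, a ratio of the sums of 54.0. The WT row was close to the second of the RNAi rows. On chromosome 2 from 122585611 to 122610591, 3 rows of 25.2, 0.519 and 0.267 FPKM in WT stood against 1 row of 29.5 FPKM in RNAi, so both missing rows were under 1 FPKM. On chromosome 1 from 514921 to 526846, 1 row of 5.22 FPKM in WT stood against 3 rows of 32.4, 6.24 and 0.420 FPKM in RNAi.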

How the data were processed

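RNA-seq of 1 WT and 1 ZmMADS47 RNAi library from 15 DAP kernels was analysed. The authors deposited FPKM values above 0 by position, made according to the methods with TopHat on the maize assembly AGPv2 and Cufflinks 2.1.1 from unique reads, and Bowtie 0.12.2 is listed in the submitters' processing notes. The deposited values are sorted from high to low, so row order carries no identity. Rows of a position were summed, and starts were raised by 1. Ratios are plain RNAi over WT ratios without a pseudocount. Whether a file combines several libraries is not stated. With 1 library per group no test was made, and intervals are not given because the depth in reads is not in the files. Of 139 single-row loci under 0.1 FPKM, 28 had ratios of 0.75 to 0.80, the fullest class, and relative depth was not used further.

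Loci were named by rule: the 10 with the most rows, the 10 with the highest mean, and, at a mean of at least 10 with equal row numbers, the 5 highest and 5 lowest ratios and 5 largest changes of top-row share, then the 5 largest differences in row number. Ties for the most rows were broken by mean summed FPKM. Members and lists were chosen with earlier results of these data known. The weighting step was tested on simulated data for the difference in medians only, and not for the spread or the shares past the limits. Alternatives covered minimum FPKM, pseudocount, scaling, the largest row in place of the sum, equal row numbers, the fold limit and class width. No sequence or gene name was used, since no annotation of AGPv2 was at hand. Python 3.11.15, numpy 2.4.6, pandas 2.3.3, scipy 1.17.1 and matplotlib 3.10.9 were used.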

Additional observations from a re-analysis of the deposited data

How the results depend on the processing

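As deposited, 631 loci with several rows (18.2%) were above 1.4 and 548 (15.8%) below 0.71, against 17.3% and 14.2% of all nuclear loci. A minimum of 5 FPKM gave 431 (16.3%) and 335 (12.7%), against 12.1% and 8.67% of all nuclear loci. Equal row numbers gave 412 (15.7%) and 310 (11.8%), against 17.3% and 14.2%. A fold limit of 2 gave 271 (7.83%) and 263 (7.59%), against 6.62% and 6.28%. With 3 or more rows there were 45 (17.6%) and 40 (15.6%), against 17.3% and 14.2%. Leaving out rows under 1 FPKM, chosen after seeing the data, gave 420 (17.9%) and 352 (15.0%), against 14.2% and 10.6%. These settings compare fewer loci or demand more, and under the others both counts stayed within 1.5 times. Scaling by the median ratio gave 546 (15.8%) and 625 (18.1%), against 14.7% and 16.1% of all nuclear loci. Scaling to the same total gave 926 (26.6%) and 396 (11.4%), against 26.9% and 10.4%. The median log2 ratio of 0.041 became -0.031 and 0.22 under these scalings, and 0.067 with 3 or more rows. The difference from single-row loci was -0.019 with 3 or more rows and -0.04 or -0.03 otherwise. The median share of the top row over both libraries was 76.6%, and 78.0% at a minimum of 5 FPKM, 75% with equal row numbers, 67.5% with 3 or more rows and 71% without rows under 1 FPKM. The share of nuclear FPKM was 29.9% in RNAi and 30.5% in WT with equal row numbers, and 8.97% and 10.7% with 3 or more rows. The ratio of the summed FPKM was 0.863 without the 8-row locus, 1.10 without loci at 1000 FPKM or more, 0.873 without loci with an unpartnered row of at least 100 FPKM, 0.799 under the median ratio and 0.946 under the same total, all chosen after seeing the data. With the largest row in place of the sum, the chromosome 4 locus from 238222376 to 238229214 had a log2 ratio of -0.070 and its direction was turned, and the one from 39321164 to 39328201 fell inside the limits. The files give no read counts, so the counting error of low rows is unknown. No paired analysis was possible because there is 1 library per group.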

Other observations

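Outside chromosomes 1 to 10, 4 of 73 listed positions held several rows. The one with the most rows, on the mitochondrial genome from 111497 to 115826, had 4 rows summing to 6.10 FPKM in RNAi and 5 rows summing to 9.43 FPKM in WT.

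The longest locus with several rows, on chromosome 3 from 23904351 to 24095931, had 2 rows in each library, which summed to 915 FPKM in WT and 721 FPKM in RNAi, a ratio of 0.788. The third longest, on chromosome 1 from 165814484 to 165965196, had 1 row of 5.25 FPKM in WT and 2 rows summing to 18.3 FPKM in RNAi.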
